A study of Mus musculus with 21 samples.

Results

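Basement membranes are thin sheets of matrix in which a network of collagen IV and a network of laminin are joined by nidogens and heparan sulfate proteoglycans. Collagen VIII forms a separate open network around vessels, and collagens XV and XVIII carry sugar chains and sit in or beside basement membranes. In bone marrow these proteins surround arterioles and line the sinusoids, where stromal cells lie against the endothelium. The genes described here are the mouse genes for 4 collagen IV chains (Col4a1, Col4a2, Col4a5 and Col4a6), both collagen VIII chains (Col8a1 and Col8a2), Col15a1, Col18a1 and both nidogens (Nid1 and Nid2). They are 10 of the 26852 genes in the deposited expression table, chosen by name from what they encode. The choice was made with earlier results of these data known.

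RNA sequencing was done on Nes low mesenchymal cells, which carry a dim Nestin-GFP reporter, sorted from the bone marrow of immunodeficient NSG Nestin-GFP mice that were 8 to 12 weeks old, and unconditioned, when human leukemia cells were injected. The leukemias were the human myeloid lines HL60 and ML1, each carrying sLP-mCherry, a secreted lipid-permeable red protein driven by a PGK promoter that neighbouring cells take up. The 21 libraries were 3 from mice without leukemia (ctrl), 6 of cells without mCherry at the early time point (ch−), 6 of cells with mCherry at the early time point (ch+) and 6 from the late time point, whose labels give no split by mCherry. HL60 and ML1 each gave 3 libraries of every leukemic group. For ctrl the paper's legend counts 5, where the deposited table and its labels hold 3. Early libraries therefore separate stromal cells of the same marrow by uptake of a label from leukemia cells, and comparing ch+ with ch− asks what differed in cells near the leukemia. The labels do not pair ch+ with ch− libraries by mouse and do not say whether the libraries of a group came from separate mice, so the p-values below measure the spread between these libraries, which are named by the replicate numbers of their labels.

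Labels disagree at 2 places. The 3 late ML1 libraries have a title and time point that say late and a treatment entry that says unengrafted, so late calls against ctrl and the counts of each list are also given without them. The extraction text of the labels describes sorting of CD31-positive endothelial cells, whereas the source is given as Nes low mesenchymal cells. The mesenchymal gene Cxcl12 averaged 15.19 ± 0.35 in ctrl (log2, SD, n = 3) and 16.17 ± 0.16 in late (n = 6), with means of 15.61 in ch− and 16.07 in ch+. The endothelial gene Pecam1, which encodes CD31, had a mean of 5.59 ± 0.36 in ctrl and 4.87 ± 0.44 in late. Summed linear levels of mesenchymal markers had a median of 56300 in ctrl, below those of chondrocyte markers (110000) and osteoblast markers (1390000). By mean log2 value in ctrl, mesenchymal markers (11.18) were above chondrocyte markers (10.93) and below osteoblast markers (13.78). Of 18 endothelial markers, 14 had a mean high enough to be tested, and the mean log2 value over all 18 was 4.82 in ch+, 4.25 in late, 4.65 in ctrl and 4.58 in ch−. In ML1 alone ch+ (4.63) was below ch− (4.73) and ctrl, and in HL60 alone it was above both, at 5.01.

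Values are regularized log2 expression as the authors deposited it, a scale that already corrects for sequencing depth and pulls the values of low genes together. Whole read counts cannot be recovered from it and the depth of each library is unknown. Values taken back to the linear scale summed per library to 7260000 to 9020000 in late, which was less than in ctrl (11900000 to 14200000), ch− (12300000 to 14700000) and ch+ (11200000 to 12600000). Changes are differences of mean log2 values with their standard errors (SE) from limma, a linear model fitted to the 12976 genes whose mean reached log2 of 10, that is 3.32. A gene is called, and said to have risen or fallen, when its Benjamini-Hochberg adjusted p was under 0.1. Of the 10 genes 9 passed the filter, Col8a2 just inside it with a mean of 3.47, and Col4a6, with a mean of 2.94, did not.

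Late leukemia came with higher expression of the major collagen IV chains, Col8a1, Col18a1 and both nidogens, and with lower Col15a1. Against ctrl 6 of the 9 tested genes rose and 1 fell, where 21.5% of all tested genes were called, 10.2% higher and 11.4% lower. Without the late ML1 libraries 5 rose and 1 fell, beside 12.4% of all genes, and Col18a1 was no longer called. The median log2 change of the 9 genes was 1.07 in late, and that of all tested genes was 0.02 (-0.15 and 0.01 in ch+). In ch+ cells 4 genes rose against ctrl (Col4a1, Col4a2, Col8a1 and Nid1) and limma called 0 lower, with 4 of the 9 at an unadjusted p under 0.05, the same 4, beside 6.17% of all genes called, 3.41% higher and 2.75% lower. Without ctrl library 375 only 1 of these was called, and without 373 only 2 were. Shares of all genes called without those libraries are not given here, so these losses cannot be read as particular to these genes. In ch− cells limma called 0 of the 9 against ctrl, with 2 at an unadjusted p under 0.05, beside 1.92% of all genes. It called 1 with 7 groups averaged over lines (2.72% of all genes) and 2 in HL60 alone (1.36%). These comparisons share the 3 ctrl libraries. In bulk samples fewer cells of a type and less RNA per cell cannot be told apart, and this holds for every change given here.

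**Figure D1:**
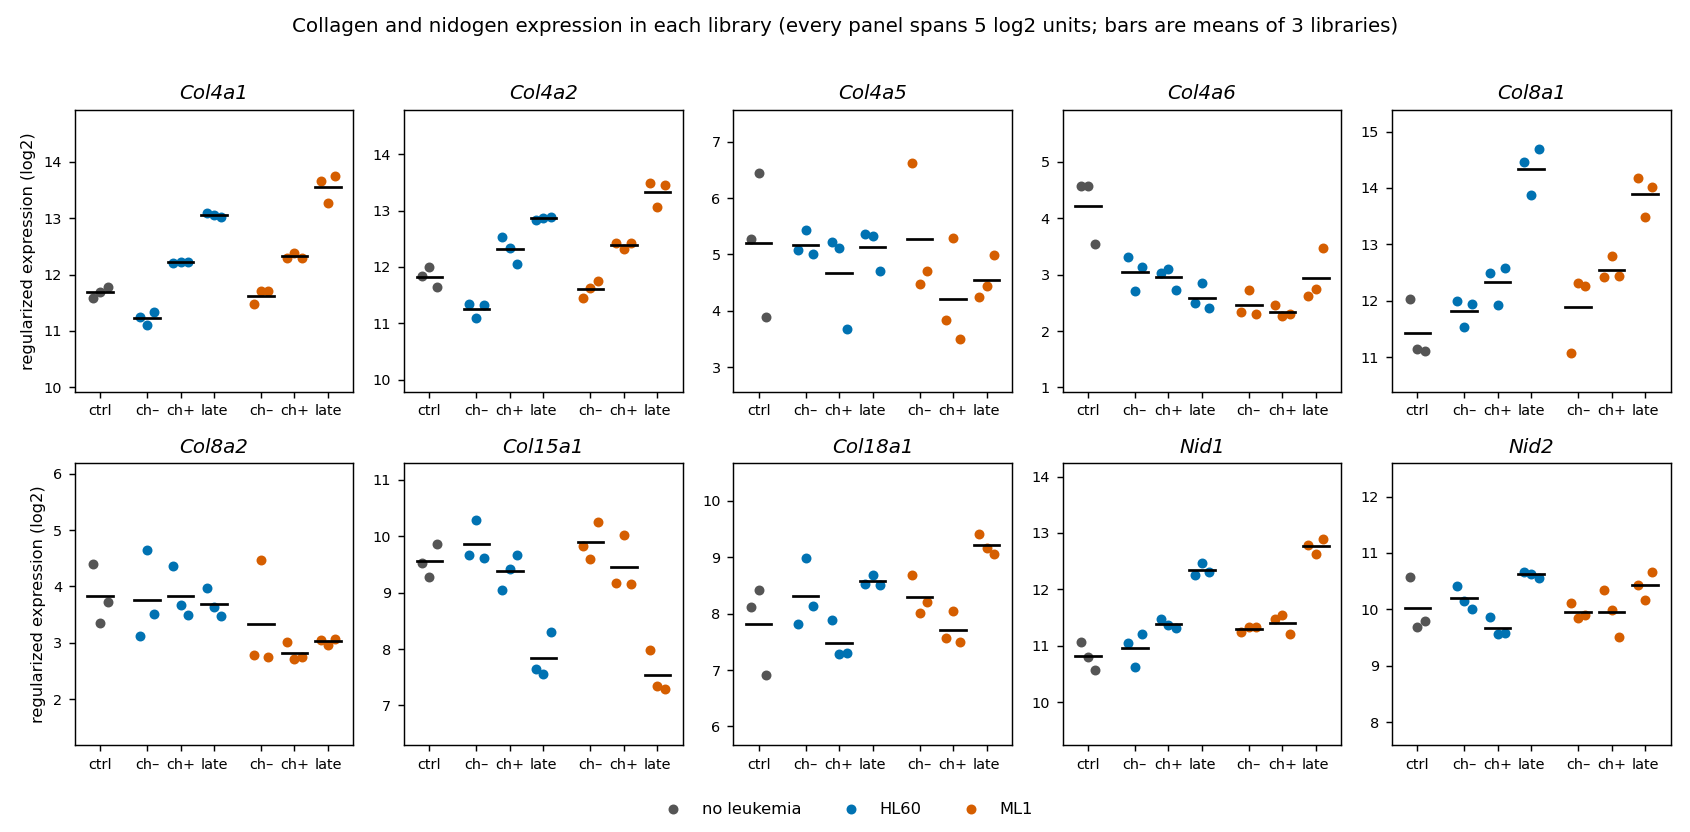
Regularized log2 expression of the 10 genes in each of the 21 libraries, with ctrl in grey, HL60 in blue and ML1 in orange; points are libraries, bars are means of 3 libraries, and every panel spans 5 log2 units. For Col4a1, Col4a2, Col8a1 and Nid1 all 6 late points lie above all points of the other groups, and for Col15a1 all 6 lie below them, beside 4.28% of all tested genes with late libraries apart in either direction.

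Col4a1 and Col4a2 encode the chains of the most widespread collagen IV trimer. Col4a1 had log2 values of 11.58, 11.69 and 11.78 in ctrl. In HL60 it had 11.25, 11.10 and 11.33 in ch−, 12.21, 12.22 and 12.22 in ch+, and 13.10, 13.05 and 13.02 in late. In ML1 it had 11.47, 11.70 and 11.70 in ch−, 12.29, 12.38 and 12.29 in ch+, and 13.65, 13.27 and 13.74 in late. Every ch+ library was above every ctrl and ch− library, and every late library was above every ch+ library. Of all tested genes 8.06% had no overlap between ch+ and ctrl, and 8.75% between late and ch+. Col4a1 rose by 0.59 ± 0.15 (SE) in ch+, which is 1.5-fold (adjusted p = 0.0229), and by 1.62 ± 0.15 in late, which is 3.08-fold (adjusted p = 1.12e-08). Between ch− and ctrl it differed by -0.26 ± 0.15, which was not called (adjusted p = 0.535) but was in HL60 compared apart, as given below. Without ctrl library 373 the ch+ change was 0.54 and was not called (adjusted p = 0.114).

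Col4a2 followed the same order of groups. Its log2 values were 11.84, 12.00 and 11.64 in ctrl. HL60 libraries had 11.34, 11.09 and 11.33 in ch−, 12.53, 12.34 and 12.06 in ch+, and 12.84, 12.86 and 12.89 in late. ML1 libraries had 11.44, 11.63 and 11.75 in ch−, 12.43, 12.32 and 12.42 in ch+, and 13.48, 13.07 and 13.46 in late. All ch+ libraries lay above ctrl, by as little as the gap between 12.06 and 12.00, and all late libraries lay above ch+. Col4a2 rose by 0.52 ± 0.16 in ch+ (1.44-fold, adjusted p = 0.055) and by 1.27 ± 0.16 in late (2.41-fold, adjusted p = 7.77e-07). The ch− difference was -0.40 ± 0.16 (adjusted p = 0.285), and it was called in HL60 compared apart, as given below. The ch+ change was not called without ctrl library 373 (0.53) or 375 (0.43), nor without a filter, without a trend in the variance, with library weights or at a threshold of 0.05.

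For these 2 chains, and for none of the other 7 tested genes, ch+ and ch− libraries did not overlap, as for 3.01% of all tested genes. Between ch+ and ch−, Col4a1 was higher by 0.85 ± 0.12 (1.8-fold, adjusted p = 2.6e-05) and Col4a2 by 0.92 ± 0.13 (1.89-fold, adjusted p = 1.04e-05), in 6 of 6 ch+ libraries above 6 of 6 ch− libraries for each. From ch+ to late, Col4a1 rose by a further 1.04 ± 0.12 and Col4a2 by 0.75 ± 0.13. From ch− to late the rises were 1.88 ± 0.12 and 1.67 ± 0.13.

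Both genes start within the same stretch of chromosome 8 and are read in opposite directions. In the GRCm38 annotation Col4a1 (ENSMUSG00000031502) spans chr8:11198423-11312826 on the minus strand and Col4a2 (ENSMUSG00000031503) spans chr8:11312805-11449287 on the plus strand. Exon 1 of one gene overlaps exon 1 of the other by 22 bases, which are 0.295% of the exon bases of Col4a1 and 0.332% of those of Col4a2. The overlap is shown because both genes that move together begin in it. It is chr8:11312805-11312826, plus strand, from RefSeq on GRCm38.p6, with capitals for GGGCGG, the letters of a GC box. Those letters, on either strand, were in the same 22 bases after the start of 4.09% of 32851 RefSeq promoter windows.
Col4a1 and Col4a2 overlap: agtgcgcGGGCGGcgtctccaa

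Col4a5 and Col4a6, which encode chains of a collagen IV found in fewer tissues, were low and did not follow Col4a1. They are also neighbours read in opposite directions, on chromosome X. Col4a6 (ENSMUSG00000031273, minus strand) spans chrX:141165403-141474076 and Col4a5 (ENSMUSG00000031274, plus strand) spans chrX:141475385-141689234, with 1308 bases between them. Col4a5 averaged 5.22 ± 0.76 on the log2 scale in ch− (SD, n = 6), 4.44 ± 0.85 in ch+, 4.84 ± 0.46 in late and 5.21 ± 1.28 in ctrl (n = 3). Its ctrl libraries, at 5.28, 6.45 and 3.89, covered almost the whole range of the other groups. As deposited it was not called in any comparison (adjusted p = 0.71 in late and 0.478 in ch+ against ctrl), but from ch+ to late it was called with equal library totals, at 1.02 in place of 0.40.

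Col4a6 had log2 values of 4.57, 4.57 and 3.54 in ctrl. Lowest, median and highest values were 2.31, 2.71 and 3.32 in ch−, 2.27, 2.60 and 3.10 in ch+, and 2.42, 2.68 and 3.47 in late. All 18 leukemic libraries lay below all 3 ctrl libraries, the nearest at 3.47 beside 3.54, as no overlap was seen for 0.544% of all 26852 genes. Since its mean was under the filter, Col4a6 was tested only in a fit of all 26852 genes without a filter. There it differed from ctrl by -1.46 ± 0.30 in late (adjusted p = 0.00329), -1.57 ± 0.30 in ch+ (adjusted p = 0.00783) and -1.47 ± 0.30 in ch− (adjusted p = 0.0312). In that fit 9.57%, 2.21% and 0.689% of genes were called in late, ch+ and ch−. Values this low rest on few reads, and the deposited scale reduces such differences.

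Col8a1 encodes the collagen VIII chain that was abundant in these cells, and it had the largest rise of the 9 genes. Its log2 values in ctrl were 12.03, 11.15 and 11.10. With HL60 they were 12.00, 11.54 and 11.94 in ch−, 12.49, 11.93 and 12.58 in ch+, and 14.46, 13.87 and 14.70 in late. With ML1 they were 11.07, 12.32 and 12.26 in ch−, 12.42, 12.80 and 12.44 in ch+, and 14.17, 13.48 and 14.01 in late. Late libraries stood above all others, while ctrl, ch− and ch+ overlapped, with ctrl library 373 apart from the other ctrl libraries. Col8a1 rose by 2.69 ± 0.25 in late (6.44-fold, adjusted p = 8.23e-09) and by 1.02 ± 0.25 in ch+ (2.03-fold, adjusted p = 0.0138). Without ctrl library 374 (0.88) or 375 (0.85) the ch+ change was not called. In ch− the difference from ctrl was 0.43 ± 0.25 (adjusted p = 0.53), and between ch+ and ch− it was 0.59 ± 0.20, just short of the threshold (adjusted p = 0.105). That difference was called without ch+ library 524 (0.69) or ch− library 544 (0.69) or 546 (0.67), without ctrl library 373 or late library 399 or 582 (0.59 each), with equal library totals (0.74), in a fit of the compared groups only and with 7 groups averaged over lines (0.59 in both).

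Col8a2, the gene of the other collagen VIII chain (ENSMUSG00000056174, chr4:126286793-126314330), was among the lowest of the 10. It had 4.41, 3.35 and 3.73 in ctrl. Lowest, median and highest values were 2.72, 3.25 and 4.36 in ch+, and 2.97, 3.27 and 3.97 in late. The groups overlapped and the late difference from ctrl, -0.47 ± 0.41, was not called (adjusted p = 0.52). In ch+ the HL60 libraries lay above the ML1 libraries by 1.01 ± 0.43 without being called (adjusted p = 0.597).

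Col15a1 (ENSMUSG00000028339, chr4:47208161-47313167), the collagen XV gene, was the one gene of the 9 that fell in late. Its log2 values were 9.53, 9.28 and 9.86 in ctrl. HL60 gave 9.66, 10.29 and 9.62 in ch−, 9.05, 9.41 and 9.67 in ch+, and 7.64, 7.56 and 8.31 in late. ML1 gave 9.83, 9.59 and 10.25 in ch−, 9.16, 10.03 and 9.15 in ch+, and 7.99, 7.34 and 7.30 in late. The highest late library, 8.31, was below the lowest library of any other group, 9.05, and the early groups overlapped ctrl. Col15a1 fell by 1.87 ± 0.23 in late against ctrl (3.66-fold lower, adjusted p = 7.31e-07) and by 2.19 ± 0.19 against ch− (4.55-fold lower, adjusted p = 8.03e-10). Neither early group was called against ctrl, with -0.15 ± 0.23 in ch+ (adjusted p = 0.809) and 0.32 ± 0.23 in ch− (adjusted p = 0.638). The difference between ch+ and ch−, -0.46 ± 0.19 (adjusted p = 0.201), was called only without ch+ library 539 (-0.58) among the single libraries left out.

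Col18a1 (ENSMUSG00000001435, chr10:77052178-77166548) encodes collagen XVIII, from which endostatin is released. Ctrl libraries had 8.12, 8.43 and 6.92. HL60 libraries had 7.83, 8.98 and 8.13 in ch−, 7.88, 7.28 and 7.30 in ch+, and 8.53, 8.68 and 8.51 in late. ML1 libraries had 8.68, 8.00 and 8.21 in ch−, 7.57, 8.05 and 7.49 in ch+, and 9.41, 9.16 and 9.05 in late. All late libraries were above ctrl and ch+ (19.1% of all tested genes had no overlap between late and ctrl), and ctrl library 375 was far below the other ctrl libraries. Col18a1 rose by 1.07 ± 0.28 in late (2.1-fold, adjusted p = 0.00763). Without ctrl library 375 the change was 0.62 and was not called, and without the late ML1 libraries it was 0.75 ± 0.32 (adjusted p = 0.164). Unlike Col4a1 and Col4a2, Col18a1 was lower in ch+ than in ch−, by -0.71 ± 0.23 (1.63-fold, adjusted p = 0.0818), with overlapping groups. That call was lost when any of 7 of the 12 early libraries was left out (ch+ 524, 525, 538 and 541, ch− 528, 543 and 546), with -0.57 without ch− library 528 and -0.73 without 546 as the ends of their range. It was also lost at a threshold of 0.05, without a filter, without a trend, with library weights, in each line alone and when libraries were rescaled to equal totals, with -0.56.

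Nidogens bind both laminin and collagen IV. Nid1 (ENSMUSG00000005397, chr13:13437551-13512269) had log2 values of 11.06, 10.80 and 10.57 in ctrl. In HL60 libraries it had 11.05, 10.63 and 11.20 in ch−, 11.47, 11.37 and 11.32 in ch+, and 12.26, 12.46 and 12.31 in late. In ML1 libraries it had 11.25, 11.33 and 11.33 in ch−, 11.47, 11.55 and 11.21 in ch+, and 12.79, 12.63 and 12.90 in late. Late libraries were above all others and ch+ libraries were above ctrl, while ch+ overlapped ch−. Nid1 rose by 1.75 ± 0.16 in late (3.36-fold, adjusted p = 5.12e-09) and by 0.59 ± 0.16 in ch+ (1.5-fold, adjusted p = 0.0273). The ch+ call was lost without ctrl library 375, where the change was 0.47. Between ch+ and ch− the difference was 0.26 ± 0.13 (adjusted p = 0.317).

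Nid2 (ENSMUSG00000021806, chr14:19751265-19811787) moved much less than Nid1. It had 10.58, 9.68 and 9.79 in ctrl. Lowest, median and highest values were 9.85, 10.06 and 10.42 in ch−, 9.51, 9.72 and 10.35 in ch+, and 10.16, 10.60 and 10.67 in late. Ctrl library 373 lay inside the late range, and both other ctrl libraries lay below it. The rise in late was 0.51 ± 0.19 (1.42-fold, adjusted p = 0.0684). It was not called without ctrl library 374 (0.34) or 375 (0.39) or without late library 397, 398 or 583 (each 0.48), was 0.79 without ctrl library 373, and was lost without a filter, without a trend and at a threshold of 0.05. Of the exon bases of Nid2, 437 (8.45%) overlap the gene Rtraf on the other strand, the largest overlap among the 10 genes.

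Early and late groups were also compared with each other. From ch+ to late 6 of the 9 genes rose and 1 fell, where 19.7% of all genes were called, 8.79% higher and 10.9% lower. With equal library totals 8 rose and 1 fell, Col4a5 and Col8a2 (0.65) being the added ones, beside 69.6% of all genes, and after quantile normalization 6 rose and 1 fell, beside 20.1%. As deposited Col8a1 rose by 1.67 ± 0.20 (3.18-fold), Col18a1 by 1.29 ± 0.23 (2.45-fold), Nid1 by 1.16 ± 0.13 (2.24-fold) and Nid2 by 0.71 ± 0.15 (1.64-fold), and Col15a1 fell by 1.73 ± 0.19 (3.3-fold). From ch− to late again 6 rose and 1 fell, beside 22.5% of all genes, 10.2% higher and 12.3% lower. Of those 6, Col18a1 was called narrowly (0.59 ± 0.23, adjusted p = 0.0809). It was not called without any 1 of the late libraries 581, 582 and 583 or the ch− libraries 527, 529, 544 and 546, at 0.48 to 0.57, and it was 0.27 (adjusted p = 0.686) without all late ML1 libraries. Leaving out the filter or the trend, a threshold of 0.05 or HL60 alone ended this call too. Nid2 was not called from ch− to late in either line alone or from ch+ to late in ML1 alone. Between ch+ and ch− 2 rose and 1 fell, beside 6.26% of all genes, 3.58% higher and 2.68% lower.

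**Figure D2:**
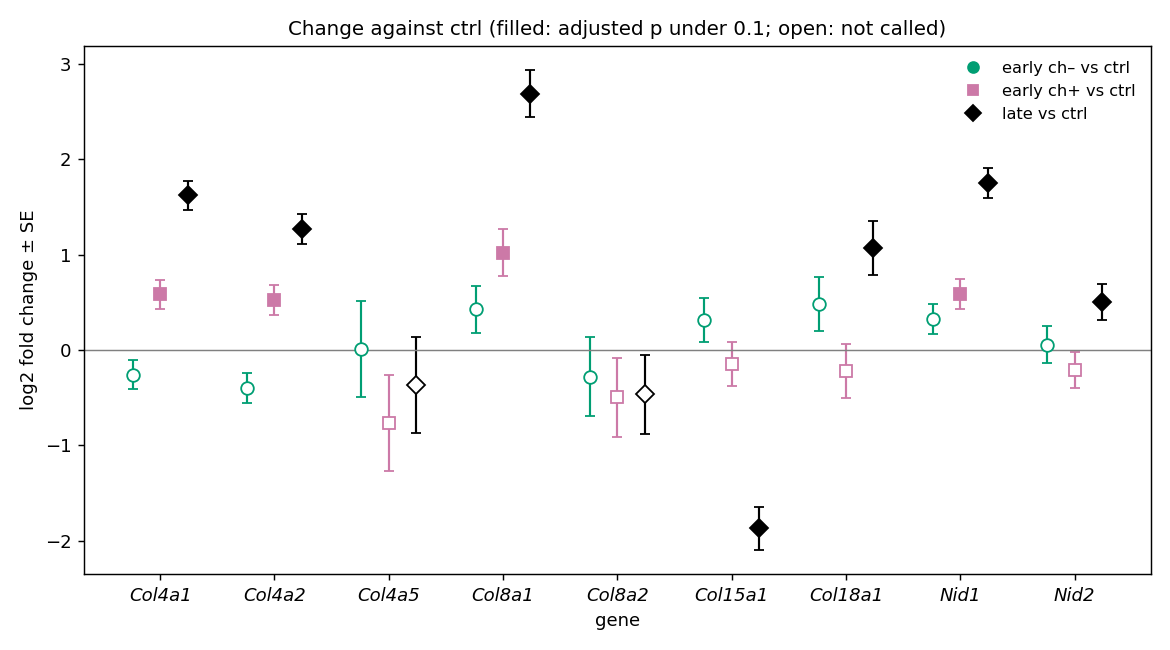
Log2 change against ctrl with its SE for the 9 tested genes in ch− (circles), ch+ (squares) and late (diamonds), where filled points are called at an adjusted p under 0.1. Late changes run from -1.87 for Col15a1 to 2.69 for Col8a1, and no ch− change is called.

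Without the late ML1 libraries the late changes against ctrl were 1.37 ± 0.14 for Col4a1, 1.03 ± 0.15 for Col4a2, 2.92 ± 0.26 for Col8a1, -1.72 ± 0.25 for Col15a1, 1.53 ± 0.16 for Nid1 and 0.61 ± 0.21 for Nid2, all called, while Col4a5 (-0.08) and Col8a2 (-0.13) were not. Against ch+ they were 0.79, 0.51, 1.90, -1.58, 0.94 and 0.81, with 0.98 for Col18a1, and all 7 were called, beside 11.4% of all genes. Against ch− they were 1.63, 1.43, 2.49, -2.04, 1.21 and 0.55, all called, beside 13% of all genes.

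In the fit of 7 groups HL60 and ML1 were each compared with the same 3 ctrl libraries. In HL60 limma called 6 of the 9 genes in late, 5 higher and 1 lower, beside 13.7% of all genes: Col4a1 by 1.37, Col4a2 by 1.03, Col8a1 by 2.92, Col15a1 by -1.72, Nid1 by 1.53 and Nid2 by 0.61. In ML1 it also called 6, 5 higher and 1 lower, beside 22% of all genes: Col4a1 by 1.87, Col4a2 by 1.51, Col8a1 by 2.46, Col15a1 by -2.02, Col18a1 by 1.39 and Nid1 by 1.96. Col18a1 in HL60 (0.75, adjusted p = 0.138) and Nid2 in ML1 (0.41, adjusted p = 0.201) were not called. From ch+ to late 7 genes were called in HL60 (6 higher, 10.2% of all genes) and 6 in ML1 (5 higher, 16.9% of all genes).

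Early comparisons of each line with ctrl share those 3 libraries too. In ch+ the called genes were Col4a1 by 0.54, Col4a2 by 0.48, Col8a1 by 0.91 and Nid1 by 0.57 in HL60, and in ML1 Col4a1 by 0.64, Col4a2 by 0.56, Col8a1 by 1.13 and Nid1 by 0.60. Of all genes 5.33% were called in HL60 and 6.69% in ML1. Between ch+ and ch− Col4a1 and Col4a2 were higher in both, by 0.99 and 1.06 in HL60 (3.92% of all genes called) and by 0.70 and 0.78 in ML1 (4.25%), and Nid2 differed by -0.53 in HL60 and 0.00 in ML1, called in neither. In ch− against ctrl Col4a1 fell by 0.46 (adjusted p = 0.0676) and Col4a2 by 0.57 (adjusted p = 0.0278) in HL60, beside 1.57% of all genes, and in ML1 Nid1 rose by 0.49 (adjusted p = 0.0902), beside 2.34%. That rise was not called in a fit of ML1 and ctrl libraries alone (adjusted p = 0.108).

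Tests of the lines against each other found a difference for collagen IV in late. There Col4a1 differed by -0.50 ± 0.12 between HL60 and ML1 (1.41-fold lower in HL60, adjusted p = 0.0139) and Col4a2 by -0.47 ± 0.14 (1.39-fold, adjusted p = 0.0516), with all 3 HL60 libraries below all 3 ML1 libraries, beside 4.09% of all genes called. Without late library 583 the difference of Col4a1 was -0.40 and was not called. Col4a2 was not called without any 1 of the late libraries 397, 398, 399, 581 and 583, at -0.48 to -0.40. Without a trend in the variance neither was called, and Col4a2 was not called without a filter, after quantile normalization (-0.42) or at a threshold of 0.05. Nid1 (-0.43, adjusted p = 0.13, called without ch− library 528, with the filter at log2(50), with robust variance, with equal totals at -0.68 and with library weights at -0.46) and Col18a1 (-0.64, adjusted p = 0.457, called with library weights at -0.65), lower in HL60, and Col8a2 (0.66, adjusted p = 0.703), higher in HL60, also had no overlap between lines and were not called as deposited. Of all tested genes 21.8% had no overlap between these groups of 3. In ch− limma called 0 of the 9, with 3 at an unadjusted p under 0.05, beside 0.0539% of all genes. There Col4a1 (-0.397 ± 0.122), Col4a2 (-0.352 ± 0.136) and Nid1 (-0.342 ± 0.145) were also lower in HL60, by sizes near those in late. Col8a2 (0.425) and Nid2 (0.244) were higher in HL60 in ch−. In ch+ limma called 0 of the 9, with 1 at an unadjusted p under 0.05, beside 0.0154% of all genes. Interaction tests ask whether a change differed between lines. For ch+ against ch− limma called 0 of the 9, with 0 at an unadjusted p under 0.05, beside 0.00771% of all genes. For late against ch+ it called 0, with 2 at an unadjusted p under 0.05 (Col4a1 and Col4a2), beside 2.5%. With equal library totals it called 2 of the 9 for late against ch+, beside 3.34%. The contradictory treatment entry belongs to the late ML1 libraries, so line and label cannot be told apart in late.

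Levels between genes were compared as linear values per kilobase of merged exons, a relative scale. In ctrl the order of medians was Col4a2 (554), Col4a1 (443), Col8a1 (290), Nid1 (257), Nid2 (171), Col15a1 (117), Col18a1 (39.7), Col4a5 (5.78), Col4a6 (2.97) and Col8a2 (2.96). Library ranges of neighbours overlapped from Col4a1 down to Nid2 and among the lowest 3, and were apart elsewhere. In late the order was Col8a1 (2230), Col4a1 (1250), Col4a2 (1220), Nid1 (862), Nid2 (299), Col18a1 (67.1), Col15a1 (30.6), Col4a5 (4.3), Col8a2 (2.18) and Col4a6 (0.804). Ranges overlapped among the top 3, from 1110 to 3400, and between Col4a5 and Col8a2. Col15a1 and Col18a1 thus changed places, from 98.1 to 147 over 17.2 to 49 in ctrl to 24.8 to 50 under 51.8 to 97.1 in late. In ch+ the highest medians were Col4a2 (806), Col8a1 (722) and Col4a1 (655), and in ch− they were Col8a1 (512), Col4a2 (406) and Col4a1 (362), each with overlapping ranges.

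Promoter windows from RefSeq (GRCm38.p6) matched 9 of the 10 genes, all but Nid2. Upstream sequence is printed for Col8a1 and Nid1, the genes outside collagen IV that rose in both ch+ and late, so that a reader can see what lies before them. Motifs were searched on both strands: GGGCGG (the GC box), CCAAT (the CCAAT box), GGAATG (the core of a TEAD motif) and TGANTCA (an AP-1 motif). No matches overlap one another, and capitals mark each match. Both stretches lie in no annotated gene. The Col8a1 stretch (chr16:57754738-57754987, minus strand, ENSMUSG00000068196 at chr16:57624258-57754737) held 4 GGGCGG, all on the other strand, and 0 of the other motifs. Of all windows of that length 32.7% held GGGCGG, 33.8% CCAAT, 12.6% GGAATG and 6.75% TGANTCA. The Nid1 stretch (chr13:13437352-13437550, plus strand) held 1 GGGCGG, 1 GGAATG and, on the other strand, 1 CCAAT, and 0 TGANTCA. At its length of 199 bases the shares were 24.4%, 10.6%, 28.2% and 5.55%. A match describes the letters and shows no binding.
Col8a1 upstream: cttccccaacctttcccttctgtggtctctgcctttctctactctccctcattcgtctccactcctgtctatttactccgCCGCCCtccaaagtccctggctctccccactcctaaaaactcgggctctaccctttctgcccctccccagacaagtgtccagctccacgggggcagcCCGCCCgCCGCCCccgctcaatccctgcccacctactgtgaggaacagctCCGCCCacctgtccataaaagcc
Nid1 upstream: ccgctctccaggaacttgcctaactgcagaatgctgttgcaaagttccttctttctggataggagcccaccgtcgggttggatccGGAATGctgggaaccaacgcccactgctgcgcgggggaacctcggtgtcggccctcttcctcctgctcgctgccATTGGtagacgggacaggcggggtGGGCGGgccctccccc

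Other genes of the same matrix were counted by list. Of 9 tested laminin chains 4 rose and 2 fell in late (median 0.54), 2 rose and 1 fell in ch+, and limma called 0 in ch−, with 1 at an unadjusted p under 0.05. Making library totals equal moved the median change of all genes in late from 0.02 to 0.71. It also moved the share of all genes called in late from 21.5% to 64%. These shares stand beside every list and marker count in late against ctrl given from here on. With equal totals 5 laminin chains rose and 0 fell. Lama1 rose by 2.02 ± 0.38 in late (adjusted p = 0.000232), Lama4 by 1.81 ± 0.16 (adjusted p = 5.12e-09) and Lamb1 by 1.71 ± 0.18 (adjusted p = 7.65e-08), and without the late ML1 libraries by 2.56, 1.53 and 1.58. In ch+ Lamb1 (0.73 ± 0.18, adjusted p = 0.0158) and Lama4 (0.65 ± 0.16, adjusted p = 0.0175) were higher and Lama5 lower (-0.84 ± 0.25, adjusted p = 0.0541). Between ch+ and ch− 3 laminin chains were higher and 2 lower, among them Lama4 (0.56), Lama5 (-0.73) and Lamc3 (-1.43). Of the 9 collagens and nidogens 6 were higher and 1 lower in late with equal totals, where 64% of all genes were called, and after quantile normalization, where 20.9% were. In ch+ 4 were higher and 0 lower under both, beside 6.25% and 5.99% of all genes. Relative to the median of all genes their median change in late was 1.05, as deposited and after rescaling alike. Rescaling shifts every gene of a library equally, so it could not move this value.

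Receptors of collagen IV and laminin moved both ways. Of 17 in late 3 rose and 7 fell as deposited, with a median of -0.47 (3 and 6 after quantile normalization), beside 21.5% of all genes. With equal library totals, which shift every gene alike, 7 rose and 3 fell, beside 64% of all genes. Itga1, a collagen-binding integrin chain, rose by 1.83 ± 0.17 (3.57-fold, adjusted p = 8.23e-09). Itga6, a laminin-binding chain, fell by 3.32 ± 0.43 (9.96-fold lower) and Itga10 fell by 2.84 ± 0.44. Itga1 was at 1.54, Itga6 at -2.31 and Itga10 at -1.64 without the late ML1 libraries, all called. Itga6 was higher in ch+ than in ch−, by 2.37 ± 0.35 (5.16-fold, adjusted p = 2.66e-05), one of 3 receptors that were higher, with Sdc2 (2.32-fold, adjusted p = 2.7e-08), and Bcam was lower, at -2.20 ± 0.32. Against ctrl 1 receptor rose and 1 fell in ch+ and 1 fell in ch−. Sdc2 was higher in ch+ (0.60 ± 0.14) and lower in ch− (-0.61 ± 0.14, adjusted p = 0.0264), and Bcam was lower in ch+ (-2.25 ± 0.40).

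Collagen IV chains are hydroxylated, folded, exported and crosslinked by enzymes and carriers that they share with other collagens. Of 24 such genes tested, 2 rose and 15 fell in late (median -0.63), beside 21.5% of all genes. After quantile normalization 2 rose and 14 fell. With equal library totals 10 rose and 5 fell, beside 64% of all genes. Loxl1, which encodes a crosslinking oxidase, rose by 1.71 ± 0.23, while Colgalt2 fell by 2.47 ± 0.43 and Loxl4 fell by 2.03 ± 0.23. Leaving out the late ML1 libraries gave 1.78 for Loxl1, -1.71 for Colgalt2 and -1.55 for Loxl4, all called. In ch+ 1 rose and 3 fell (2 fell under either other scaling), with Loxl1 at 0.76 ± 0.23, Loxl4 at -0.76 ± 0.23 and Loxl3 at -0.62 ± 0.16. In ch− against ctrl limma called 0 of these genes, with 1 at an unadjusted p under 0.05, and between ch+ and ch− it called 0, with 7 at an unadjusted p under 0.05. In ch− it also called 0 of the proteoglycans and linkers, 0 of the proteases and inhibitors and 0 of the fibrillar collagens described next, with 2, 0 and 3 at an unadjusted p under 0.05. Ctage5 was not analysed here.

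Of 17 basement membrane proteoglycans and linkers 3 rose and 6 fell in late (median -0.60), beside 21.5% of all genes. After quantile normalization 4 rose and 3 fell. With equal library totals 6 rose and 3 fell, beside 64% of all genes. Smoc1 rose by 1.89 ± 0.31, and Npnt fell by 2.18 ± 0.32 and Sparc fell by 2.03 ± 0.28, and without the late ML1 libraries they were at 1.97, -1.49 and -1.30, all called. In ch+ Ecm1 (0.77 ± 0.21) was higher, and Tinagl1 (-2.61 ± 0.46, adjusted p = 0.000525) and Hspg2, the perlecan gene (-0.44 ± 0.14, adjusted p = 0.0769), were lower. Between ch+ and ch− 3 were higher and 3 lower, led by Ecm1 (1.32), Ntn4 (1.14) and Tinagl1 (-1.97). Of 12 proteases and inhibitors 7 rose and 2 fell in late (median 0.53; 10 and 1 with equal totals, 6 and 2 after quantile normalization), with Mmp9 at 1.17 ± 0.43, Mmp2 at -1.06 ± 0.21 and Adamts1 at 0.83 ± 0.26. Mmp9 (0.20, adjusted p = 0.831) and Adamts1 (0.39, adjusted p = 0.404) were not called without the late ML1 libraries, and Mmp2 was at -0.53, called. In ch+ Timp2 (0.55) and Ctsl (0.54) were higher and Timp3 (-0.78) lower, and between ch+ and ch− Ctsb (0.72) and Timp2 (0.70) were among 3 that were higher, with Timp4 (-1.13) lower. Mmp7 was not analysed here.

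Of 11 tested fibrillar collagens 9 fell and 2 rose in late (median -2.72), 9 and 2 after quantile normalization and 8 and 2 with equal library totals. Col2a1 fell by 3.94 ± 0.43 (15.4-fold lower), Col11a2 fell by 3.55 ± 0.44 and Col11a1 fell by 3.31 ± 0.38, and without the late ML1 libraries they fell by 2.95, 2.26 and 2.20. In ch+ 2 fell, Col2a1 at -2.72 ± 0.43 and Col27a1 at -2.03 ± 0.26. Against ch− the ch+ values were -1.82 for Col2a1, -1.42 for Col27a1 and 1.07 for Col5a3. Of the remaining network collagens Col4a3 and Col4a4 were under the filter. Col10a1 differed from ctrl by -2.96 ± 0.77 in late (adjusted p = 0.0065; -2.51 without the late ML1 libraries, called) and by -3.12 ± 0.77 in ch+ (adjusted p = 0.0148), and from ch− to ch+ by -4.14 ± 0.63 (17.6-fold, adjusted p = 3.71e-05). Without the late ML1 libraries the counts of higher and lower genes in late were 5 and 2 for laminin chains, 3 and 5 for receptors, 2 and 13 for folding genes, 3 and 3 for proteoglycans and linkers, 3 and 1 for proteases and inhibitors and 1 and 9 for fibrillar collagens.

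Markers of other cell types moved with the same groups. Chondrocyte markers fell in late (11 of 11 tested) and in ch+ (10 of 11), under each scaling, and their summed linear level had a median of 110000 in ctrl that was 9500 in late, with 74800 in ch− and 27600 in ch+ between them and Col2a1 as the most abundant gene in all but 4 ch+ libraries, where it was Col11a2. Of 10 osteoblast markers 8 fell and 1 rose in late (7 and 1 with equal totals), and the sum, led by Col1a1, had medians of 1390000 in ctrl, 1260000 in ch−, 982000 in ch+, 506000 in HL60 late and 93300 in ML1 late. Between the lines in late 9 of 10 osteoblast and 7 of 11 chondrocyte markers were called, all of them higher in HL60, where Col4a1 and Col4a2 were lower. Of 12 smooth muscle and pericyte markers 8 fell in ch+ (7 with equal totals) and 5 fell and 2 rose in late (3 and 4 with equal totals), with median sums of 28400, 22300, 10700 and 19600 for the ctrl, ch−, ch+ and late groups, led by Rgs5 in 18 of 21 libraries. Of 10 mesenchymal markers 7 rose and 1 fell in late (10 and 0 with equal totals) and 6 rose in ch+, and their sum, led by Cxcl12, was 48300 to 74200 per ctrl library and 117000 to 145000 per late library. Without the late ML1 libraries the counts of higher and lower markers in late were 7 and 0 for mesenchymal, 1 and 7 for osteoblast, 0 and 11 for chondrocyte and 2 and 5 for smooth muscle and pericyte markers. Col1a1, Col2a1 and Col11a2 are fibrillar collagen genes that the marker lists also hold. The part of these cell types in the changes of collagens and nidogens was not tested.

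Endothelial cells also make collagen IV. Of 14 tested endothelial markers 0 rose and 2 fell in late (4 and 1 with equal totals), and 0 rose and 1 fell in ch+ (2 and 1 with equal totals), with limma calling 0 in ch−, where 1 had an unadjusted p under 0.05. Their level summed over all 18 was 1020 to 1560 per library in ch+, 404 to 758 in late, 689 to 846 in ctrl and 519 to 846 in ch−. Ly6c1 was the most abundant in every ch+ and ctrl library, and Flt4 had the highest mean in late. Ly6c1, at 2.23, was also the one endothelial marker called between ch+ and ch−. With Ly6c1 left out, which was done after its values were seen, the sums were 493 to 632 in ML1 ch+ and 565 to 702 in ML1 ch−, and 830 to 972 in HL60 ch+ and 389 to 742 in HL60 ch−. Their part in the higher collagen IV of ch+ cells was not tested. In late 1 endothelial marker rose and 1 fell without the ML1 libraries. The paper's methods describe depletion of CD45-positive mouse and human cells, then a sort with stains for CD45, Ter119 and mouse CD31. Markers of blood cells (7 of 8) and red cells (6 of 7) rose in ch+ and, with 6 of 8 and 5 of 7, in ch−. In late 1 blood marker rose and 2 fell (1 and 0 with equal totals), and 0 red cell markers rose and 2 fell (2 and 2 with equal totals). With the late ML1 libraries left out limma called 0 blood markers, with 2 at an unadjusted p under 0.05, and 0 red cell markers rose and 2 fell. Median sums for the ctrl, ch−, ch+ and late groups were 132, 1460, 1790 and 174 for blood, led by S100a9 in the early groups and by Cybb in late, and 379, 5850, 6330 and 101 for red cells, led by Hbb-bs in all early libraries. Their part in the early results was not tested.

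Among all tested genes those nearest in pattern were found by the root mean square difference of values over the 21 libraries, after each gene's own mean was subtracted. For Col4a1 they were Col4a2 (0.176), Osmr (0.185) and Lama4 (0.186), where the median of all genes was 0.884. For Col8a1 they were Aldh1a2 (0.375), Fbn1 (0.394) and Tmem178 (0.418), with a median of 1.16. For Col15a1 they were Ralgps2 (0.36), Fam78b (0.37) and Jam2 (0.374), with a median of 1.05.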

How the data were processed

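The deposited table holds regularized log2 expression that the authors computed with DESeq2 1.10.1 from RSEM 1.2.29 gene counts of STAR 2.5.1b alignments to mm10 with Ensembl genes. The paper's methods name a later version of that tool and a log10 transformation; the values fit log2, running from -2.33 to 22.4. RSEM counted 1 strand, the paper describes strand-specific reads, and its kits are not stated to keep strand. Symbols were found for 26686 of 26852 identifiers.

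Genes with a mean of at least log2(10) were fitted in R 4.3.3 with limma 3.58.1 (moderated variance with a trend, two-sided, Benjamini-Hochberg adjusted over 12976 genes), as 4 groups, and as 7 groups where lines were apart. The code was tested on simulated data for late against ctrl. There 41 of 100 changes of 1 log2 unit were called, 97 of 100 changes of 2, and 28 of 12776 unchanged genes. A change of about 1 or less that was not called is therefore not shown to be absent. Sequences and annotation were read with Python 3.11.15. Correlations between libraries of a group were 0.935 to 0.976 across genes, which are not independent replicates. Depth is unknown, so no counting interval is given.

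The 10 genes and all lists were chosen with earlier results of these data known. All 10 were named; of each other list, counts and up to 3 called genes per comparison with the largest absolute change; for likeness, the 3 genes nearest to each of the 3 members whose 7 group means had the largest SD. Lists covered the matrix genes above and markers of mesenchymal, endothelial, smooth muscle and pericyte, chondrocyte, osteoblast, Schwann, adipocyte, skeletal muscle, blood and red cells. Alternatives changed the filter, normalization, variance model, groups, lines, threshold and libraries.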

Additional observations from a re-analysis of the deposited data

Results flagged for a closer look

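In the late group the lines differed for both major collagen IV chains by a test of the difference itself. Col4a1 was lower in HL60 than in ML1, with a log2 difference of -0.50 (limma adjusted p = 0.0139), and Col4a2 likewise, with -0.47 (adjusted p = 0.0516). For each, all 3 HL60 libraries were below all 3 ML1 libraries, and 21.8% of all tested genes had no overlap there. Neither was called without a trend in the variance, and after quantile normalization only Col4a1 was. The 3 ML1 libraries are the ones whose treatment entry contradicts their title. In ch− both chains were lower in HL60 too, at -0.397 for Col4a1 and -0.352 for Col4a2, and neither was called. Among 30 pairs of a gene and a group of 6 libraries examined for a library far from the rest, 0 had one, where chance gives about 1 in 20.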

How the results depend on the processing

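No paired analysis was possible because no replicate number occurs in more than 1 group. The directions of all called changes of the 9 tested genes held under every alternative run. Reversed among them were only changes that were not called, and the cause was not tested for any value here.

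Rescaled to equal library totals, Col4a5 and Col8a2 changed by 0.33 and 0.23 in late against ctrl and by 0.39 and 0.58 in late against ch−, Col4a5 and Nid2 by -0.061 and -0.018 in ch− against ctrl. HL60 minus ML1 became 0.009 (Col4a5), 0.048 (Col8a1) and 0.073 (Col15a1) in ch−, 0.017 (Nid1) in ch+ and -0.043 (Nid2) in late, and the interaction for late against ch+ -0.18 (Col4a5), with 2 of the 9 genes called (3.34% of all). Called genes were then 8302 in late against ctrl, 9031 against ch+ and 10161 against ch−. Quantile normalization gave Col4a5 -0.067 in ch− against ctrl and Nid1 0.001 between lines in ch+, and 1 of the 9 genes between lines in late (3.95% of all). Without a filter 1 of the 10 (Col4a6) was called in ch− against ctrl (0.689% of all), 1 (Col4a1) between lines in late (1.59%), and 4515 genes in late against ch−. Without a trend 0 of the 9 were called between lines in late (3.03% of all).

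Library weights gave Col4a5 -0.24 and 156 called genes in ch− against ctrl, Col8a2 -0.042 in late against ch+, Col4a5 0.12 and Col18a1 -0.015 between lines in ch−, 4 of the 9 genes between lines in late (9.12% of all) and Col15a1 0.11 for the interaction of ch+ against ch−. With 7 groups averaged over lines 1 of the 9 was called in ch− (2.72% of all). HL60 alone gave Col8a2 0.01 in ch+ against ctrl, Col4a5 -0.034 and 2 of the 9 called in ch− (1.36% of all), Col8a2 0.079 and 478 genes in ch+ against ch−, Col8a2 -0.14 and 1286 genes in late against ch+, and 1756 and 1513 genes in late against ctrl and ch−. ML1 alone gave Nid2 -0.066 in ch− against ctrl, and Nid2 0.00 and 460 genes in ch+ against ch−. Without the late ML1 libraries 1613, 1475 and 1690 genes were called in late against ctrl, ch+ and ch−, and Col8a2 was 0.15 against ch−. At an adjusted p under 0.05 these were 512 genes in ch+, 156 in ch− and 1 of the 9 between lines in late (3.18% of all).

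For the counts of the 9 genes that follow, the share of all genes called in each fit is not given. A loss of calls among the 9 therefore cannot be read as particular to them. Leaving out each library in turn moved counts from 1 (without ctrl library 375) to 4 of the 9 in ch+ against ctrl, from 136 (without ctrl library 374 or 375) to 280 genes in ch− against ctrl and from 0 to 3 of the 9 between lines in late. It reversed, with lowest and highest values, Col4a5 in late (-1.02 to 0.26) and ch− (-0.64 to 0.64) against ctrl, Nid2 (-0.38 to 0.075), Col18a1 (-0.68 to 0.077) and Col15a1 (-0.28 to 0.006) in ch+, Col8a2 (-0.52 to 0.008) and Nid2 (-0.11 to 0.34) in ch−, and Col8a2 in late against ch+ (-0.094 to 0.23) and ch− (-0.34 to 0.035) and in ch+ against ch− (-0.42 to 0.006). Between lines it reversed, in ch−, Col4a5 (-0.49 to 0.58), Col8a1 (-0.47 to 0.16), Col8a2 (-0.019 to 0.99), Col15a1 (-0.25 to 0.15) and Col18a1 (-0.32 to 0.26), and in ch+ Col4a2 (-0.19 to 0.049), Col15a1 (-0.21 to 0.22) and Nid1 (-0.13 to 0.043). For interactions it reversed Col4a5 (-0.12 to 1.1), Col8a1 (-0.38 to 0.24), Col15a1 (-0.21 to 0.26) and Col18a1 (-0.47 to 0.10) in ch+ against ch− and Col4a5 (-0.43 to 0.47) in late against ch+.

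Regularized values pull the lowest genes together. The median SD over libraries was 0.213 for genes with means of 0 to 2 and 0.47 for means of 2 to 4. It was 0.594 for means of 4 to 6 and 0.271 to 0.463 in the bins of higher means. Col4a6 and Col8a2 had means of 2 to 4, and Col4a5 had a mean of 4 to 6. How far the scale reduced their changes was not tested.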

Other observations

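Markers of some other cells differed between the groups as well. Of 7 tested Schwann cell markers 5 fell in ch+ against ctrl (3 with equal library totals), and 1 rose and 6 fell in ch+ against ch−. In late 0 rose and 2 fell (1 and 0 with equal totals, 0 and 2 without the late ML1 libraries). The most abundant was S100b. Of 4 adipocyte markers 3 rose in ch+, 1 in ch− and 1 in late (3 with equal totals, 1 without the late ML1 libraries), led by Lpl. Of 5 skeletal muscle markers all 5 rose in ch+ (4 after quantile normalization) and 1 fell in late (0 with equal totals; without the late ML1 libraries limma called 0, with 1 at an unadjusted p under 0.05), and the summed linear level, led by Acta1 in the early groups, had its highest median in ch+ (355) and its lowest in late (41.5), beside 61.8 in ctrl and 210 in ch−. Mean log2 values of Nes itself were 7.30 in late, 7.29 in ch+, 7.32 in ch− and 7.40 in ctrl. Adipoq is in both the mesenchymal and the adipocyte list.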
